A study of Mus musculus with 6 samples.

Results

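The oxidative phosphorylation subunits were taken as every array probe whose gene symbol begins with Ndufa, Ndufb, Ndufc, Ndufs, Ndufv, Uqcr, Atp5 or Cox followed by 4 to 8, or is Sdha, Sdhb, Sdhc, Sdhd, Cyc1 or Cycs. The rule matched 108 of 46643 probes, which carry 76 gene symbols. Of these, 74 name subunits or cytochrome c, 31 of them in complex I, 4 in complex II, 7 in complex III, 16 in complex IV and 15 in complex V. The other 2, Ndufaf1 and Atp5s, match the letters of the rule but encode no subunit and are described apart. Ndufa4, now counted with complex IV, is kept in complex I here by its symbol. The cells were labelled as natural killer cells and were sorted as CD45+ CD3- NKp46+ NK11+ from the spleen, the intestine and the skin of male RAG-2-KO mice on the C57BL/6 strain, aged 12 weeks. All 3 groups carry the RAG-2 deletion, so every mouse lacked the recombinase that T and B lymphocytes need to form. Each tissue gave 2 Illumina bead arrays, replicates I and II, and nothing in the labels says whether the replicates came from separate animals or how many mice were pooled. The p-values below therefore measure the spread between these arrays, which may be technical.

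Oxidative phosphorylation takes place in the inner mitochondrial membrane. Complex I takes electrons from NADH and complex II takes them from succinate; complex III passes them to cytochrome c, and complex IV hands them to oxygen. Complexes I, III and IV pump protons, and complex V, the ATP synthase, lets the protons return and makes ATP. In natural killer cells this pathway is known to carry much of the energy supply at rest and during activation by cytokines.

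The promoters of nuclear subunit genes are known to share sites for a few activators, among them NRF1 and the ETS factor GABP. For that reason the stretches of 5 of the genes described below are printed here. They come from RefSeq promoters on GRCm38.p6 and hold the 180 bases before the transcription start, read 5′ to 3′ on the gene's strand, with motif matches in capitals. Atp5h lies at chr11:115419920-115420099 on the minus strand, with an NRF1 match and, on the opposite strand, an ETS match. Uqcr, now named Uqcr11, lies at chr10:80406822-80407001 on the minus strand, with an ETS match. Sdhb lies at chr4:140961091-140961270 on the plus strand, with 3 matches to the SP1 motif on the opposite strand. Ndufa4 lies at chr6:11907451-11907630 on the minus strand and held no match in this stretch. Atp5g2 lies at chr15:102671048-102671227 on the minus strand, with an NRF1 match.
Atp5h: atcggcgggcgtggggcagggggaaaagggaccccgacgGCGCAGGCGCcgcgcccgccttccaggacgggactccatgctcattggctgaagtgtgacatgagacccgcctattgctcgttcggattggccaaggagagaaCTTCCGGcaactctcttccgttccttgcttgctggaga
Uqcr: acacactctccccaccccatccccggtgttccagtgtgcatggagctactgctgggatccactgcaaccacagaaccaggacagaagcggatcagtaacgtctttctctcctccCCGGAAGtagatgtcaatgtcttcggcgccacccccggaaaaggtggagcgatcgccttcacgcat
Sdhb: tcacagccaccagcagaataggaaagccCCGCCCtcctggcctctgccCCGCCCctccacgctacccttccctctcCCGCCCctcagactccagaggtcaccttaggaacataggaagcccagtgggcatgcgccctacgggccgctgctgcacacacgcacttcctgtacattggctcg
Ndufa4: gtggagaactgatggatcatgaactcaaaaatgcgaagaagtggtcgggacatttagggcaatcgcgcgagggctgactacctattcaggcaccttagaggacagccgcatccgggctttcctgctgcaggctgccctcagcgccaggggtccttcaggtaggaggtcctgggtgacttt
Atp5g2: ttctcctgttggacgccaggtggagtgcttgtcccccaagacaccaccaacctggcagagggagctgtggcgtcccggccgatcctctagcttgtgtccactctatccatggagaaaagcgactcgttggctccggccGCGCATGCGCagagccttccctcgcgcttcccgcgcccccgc

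Promoters of 300 bases, from 250 before to 50 after the start, were matched for 60 of the 74 subunit genes and gave 65 promoters, since some genes have more than 1 start. Both strands were searched for NRF1 (GCGCA, any base, GCGC), ETS (CCGGAAG), YY1 (AAGATGGCG), ERR (TCAAGGTCA) and SP1 (GGGCGG); no match removed another, and matches may overlap. The NRF1 letters were in 26.15% of subunit promoters against 4.603% of all 32851 promoters. For ETS the shares were 23.08% and 8.858%, for YY1 9.231% and 1.403%, for ERR 3.077% and 0.4231%, and for SP1 36.92% and 35.66%. Among subunit genes that were lower in intestine than in spleen, 25% of 28 promoters held the NRF1 letters and 21.43% held the ETS letters. Among the other tested subunit genes both motifs were in 28.12% of 32 promoters. In the same order the shares were 14.29% and 6.25% for YY1, 0% and 6.25% for ERR, and 35.71% and 43.75% for SP1. A gene with more than 1 start counts more than once, and differences between the 2 sets were not tested. A match describes the letters and is not evidence that a factor binds.

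All 6 arrays had the same mean deposited signal of 83.1, and 15196 to 18530 of the 46643 probes were detected per array at a detection p under 0.01. Before the scaling, mean signals were 137 and 131 in spleen against 43.7 to 82.7 in intestine and skin. The tissues also differed in markers of other cells. The summed signal of 6 erythroid markers was 11704 and 17610 in spleen, 692 to 1113 in intestine and 781 to 1030 in skin, and all 5 erythroid genes that were tested were lower in both peripheral tissues than in spleen. The 11 natural killer markers on the array summed to 22214 and 22992 in spleen, 21311 and 22687 in skin but 13025 and 14998 in intestine, where 8 of 10 tested were lower than in spleen; Gzmb was not detected. Markers of type 3 innate lymphoid cells, led by Kit, summed to 1419 and 1429 in intestine against 294 and 307 in spleen and 115 and 120 in skin, with Il22, Il23r, Il17f and Ccr6 detected on no array. The 9 macrophage, monocyte and dendritic cell markers summed to 501 and 458 in spleen against 279 and 228 in intestine and 357 and 381 in skin, with Csf1r, Flt3 and Cd14 not detected. Of 5 T cell markers on the array Cd3e and Cd4 were detected nowhere, while Cd3d read 203 and 153 on the splenic arrays against 108 to 137 on the 4 others; Cd8a read 6.05 and 23.3 in intestine and at most 1.18 elsewhere. Of 8 gut epithelial markers Epcam and 3 others were detected nowhere, but Cdh1 read 61.1 and 84.5 in intestine and was detected on no other array. Pecam1, an endothelial marker, read 550.4 and 728 in intestine against 178 to 222 on the 4 other arrays, with Cdh5 and Tek detected nowhere. Krt14 and 3 other keratinocyte markers of 6 were detected nowhere. Of the 2 tested, Sfn was higher than in spleen by 0.91 in intestine and 0.57 in skin. The other was lower than in spleen in intestine and did not pass in skin. The neutrophil markers summed to 118 on splenic array II and to at most 2.86 on the 5 others. The part of these cell differences in the results below was not tested, and fewer cells of a type cannot be told apart from less RNA per cell in bulk samples.

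Of the 108 probes, 75 were detected on all 6 arrays, 15 on some and 18 on none. A gene was tested when at least 1 of its probes was detected on both arrays of at least 1 tissue, and its brightest such probe stood for it. That left 69 of the 76 genes, 67 of them subunits. The rule's probes took 1.74% and 1.62% of the summed array signal in spleen, but only 1.37% and 1.32% in intestine and 1.47% and 1.48% in skin. Spleen was the highest on both arrays and the 3 tissues did not overlap. For complex I alone the shares were 0.431% and 0.396% in spleen against 0.261% and 0.264% in intestine and 0.329% and 0.333% in skin, in the same order, which complex II shared. Skin was lowest for complex III, at 0.110% and 0.113% against 0.137% and 0.114% in intestine. Intestine and skin overlapped for complex IV, and skin overlapped spleen for complex V, at 0.530% and 0.528% against 0.559% and 0.525%.

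More subunit transcripts were lower than higher in intestinal against splenic cells. Cox6a2, Uqcr, Ndufa4 and Sdhb were among the lower, and Atp5d and 1 of 2 Uqcrb probes among the higher. At an adjusted p under 0.05 (limma, Benjamini-Hochberg over 13455 genes), 31 of 69 rule genes were lower in intestine than in spleen, 4 were higher and 34 did not pass. The tissues differed widely, since 49.3% of all genes tested were called in this comparison, 28.3% lower and 21% higher. The rule genes were called about as often, at 50.7%, but with 44.9% lower and 5.8% higher. Their median log2 difference was -0.31 against -0.04 over all genes. The 31 include Ndufab1, Ndufb2, Ndufb4 and Cox7b, which passed the detection filter through spleen alone, their highest tissue. With only probes detected on all 6 arrays, 26 of 63 rule genes were lower and 4 higher, beside 29.9% and 24.7% of all genes.

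In skin against spleen 10 rule genes were lower, 2 were higher and 57 did not pass, which made 17.4% called against 24.5% of all genes, where 11.4% were lower and 13.1% higher. The median of the rule genes was -0.09, against 0.00 over all genes. In intestine against skin 17 rule genes were lower, 3 were higher and 49 did not pass. That made 29% called against 39.3% of all genes, where 22.9% were lower and 16.4% higher. The 24.6% of rule genes lower was close to that share of 22.9%. The medians of the rule genes and of all genes were -0.19 and -0.08. The 17 include Ndufab1, which was detected on no array of either tissue. The summed erythroid signal of these last 2 tissues overlapped, at 692 to 1113 in intestine and 781 to 1030 in skin. Any pair of these comparisons shares the 2 arrays of a tissue, so their calls are not independent.

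**Figure D1:**
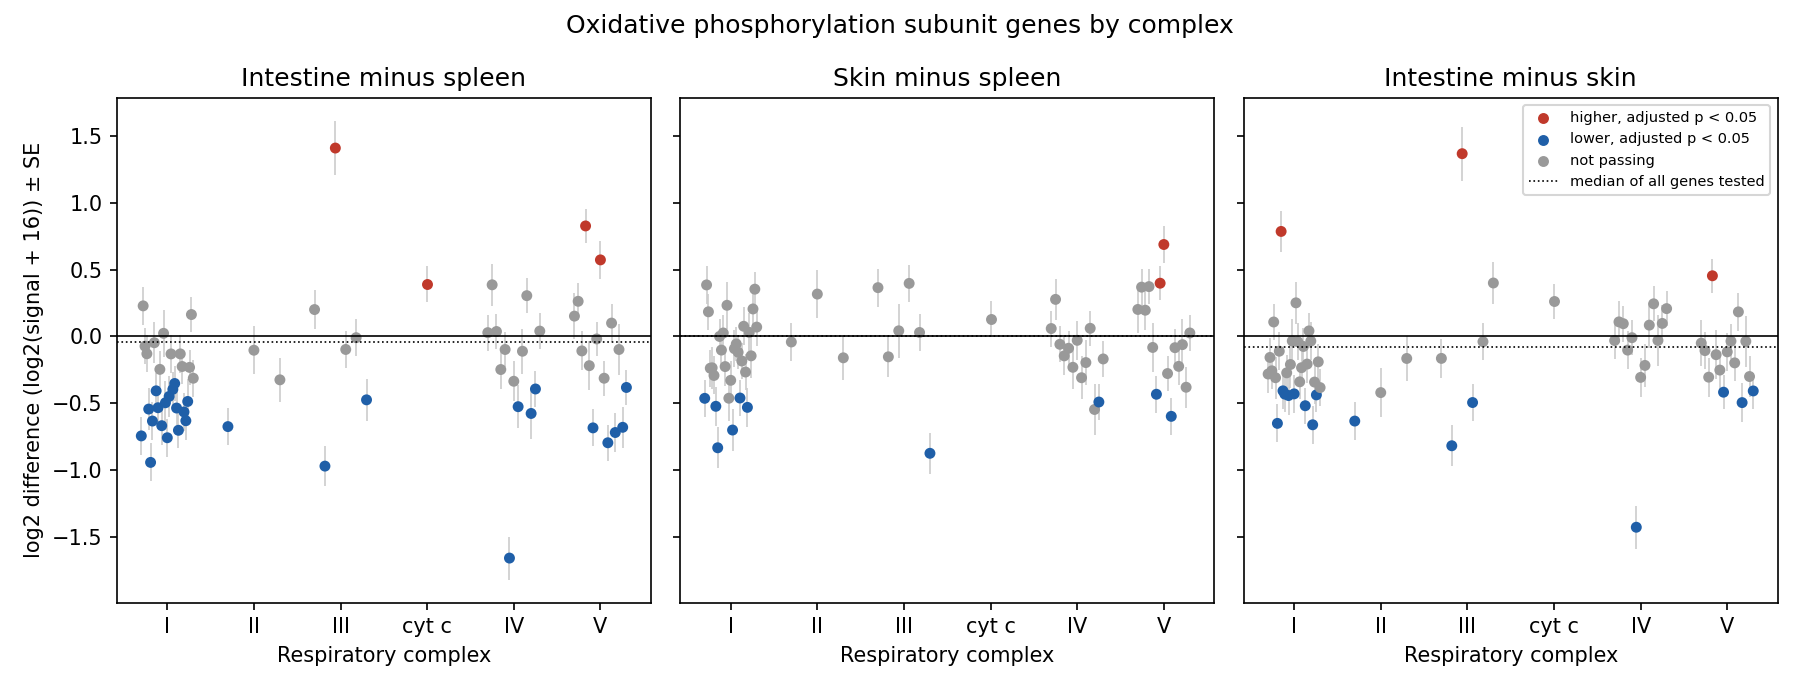
Log2 difference of each tested subunit gene by respiratory complex, 1 panel per comparison of tissues, with standard errors as grey bars and the median of all genes as a dotted line. In intestine minus spleen 29 of 67 subunits are lower (blue) and 4 are higher (red), beside 28.3% and 21% of all genes. Cox6a2 is the lowest and the brighter Uqcrb probe the highest. In skin minus spleen most points are grey.

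Quantile normalisation was used here, and 3 other ways to put the arrays on 1 scale moved the median of all genes in intestine minus spleen to -0.28 (a common median over every probe), -0.25 (the deposited scaling alone) and 0.11 (a common median over the kept probes). The rule genes moved along, to 45 lower and 3 higher, 41 and 3, and 18 and 10, beside 44%, 42.3% and 24.4% of all genes lower and 13.6%, 14.7% and 34.4% higher. The 18 of 69 lower under the last are close to the share of all genes. Higher genes made up 42.5% of all calls under quantile normalisation and 23.6%, 25.7% and 58.5% under the other scalings. The distance between the rule genes' median and that of all genes was -0.27 under quantile normalisation and -0.25 under the 3 others, which shift whole arrays and so give the same distance by construction. In skin minus spleen higher genes made up 53.4% of the calls, against 26.2%, 36.1% and 71.2%. The rule genes counted 25 lower and 2 higher, 14 and 2, and 6 and 8. Of all genes 28.1%, 22.4% and 9.85% were lower there, and 9.97%, 12.6% and 24.4% higher. The 14 and 6 of 69 lower are near the shares of 22.4% and 9.85%. In intestine minus skin higher genes made up 41.8%, against 33.8%, 30.4% and 43.7%. The rule genes counted 20 lower and 3 higher, 22 and 3, and 14 and 5. All genes there had 27.6%, 30.1% and 22.1% lower, and 14.1%, 13.2% and 17.2% higher. The 20, 22 and 14 of 69 lower are close to those shares.

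**Figure D2:**
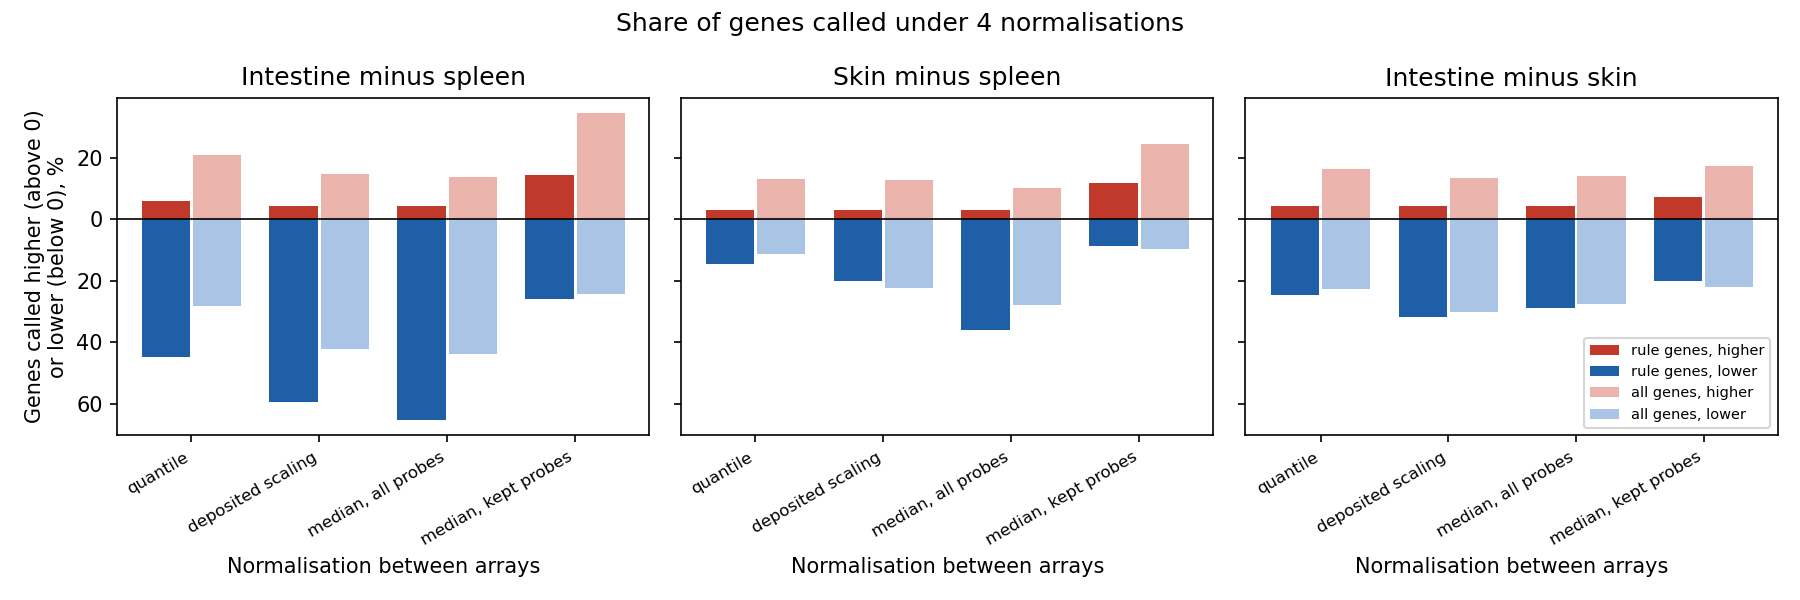
Share of genes called higher (upward bars) and lower (downward bars), in percent, for the 69 rule genes (dark) and all 13455 genes tested (pale), under 4 normalisations of the arrays. In intestine minus spleen 44.9% of rule genes against 28.3% of all genes are lower under quantile normalisation, while under the common median over kept probes 18 of 69 rule genes are lower, close to the 24.4% of all genes.

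Complex I, the NADH dehydrogenase, had the most genes tested and the largest number of lower genes. Of its 29 tested genes 17 were lower in intestine than in spleen and none was higher, beside 28.3% and 21% of all genes. The 17 include Ndufab1, Ndufb2 and Ndufb4, which passed the detection filter through spleen alone. The median log2 difference was -0.41. Signals in what follows are quantile-normalised, which puts them on the scale of the differences, and differences are on the scale of log2(signal + 16), which understates the change of dim genes. Ndufa4, first described in complex I and now counted with complex IV, is kept in these counts by its symbol. It read 1971 and 1842 in spleen against 1009 and 959 in intestine and 1705 and 1415 in skin. Both intestinal arrays lay below all 4 others. Its difference was -0.94 ± 0.14 (SE, adjusted p = 0.000458) against spleen, or 1.92-fold lower, and -0.65 ± 0.14 (adjusted p = 0.00491) against skin. Ndufb3, an accessory subunit of the membrane arm, read 316 and 274 on the spleen arrays, 154 and 182 on those of intestine, and 227 and 235 on those of skin. The intestinal arrays were again the lowest, by 0.76 ± 0.14 against spleen (adjusted p = 0.00171). Ndufa1, a small accessory subunit that complex I needs to assemble, read 1848 and 1961 in spleen against 1076 and 1186 in intestine and 1273 and 1488 in skin. Spleen stood above both other tissues, which did not overlap either, and the difference was -0.74 ± 0.14 in intestine (adjusted p = 0.00176) and -0.46 ± 0.14 in skin (adjusted p = 0.0394). The skin call for Ndufa1 was lost under the common median over kept probes.

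In the other complex I genes that were called lower in intestine, differences from spleen ran from -0.70 for Ndufc1 to -0.35 for Ndufb8. Ndufc1, an accessory membrane-arm subunit, read 323 and 283 on the spleen arrays, 181 and 179 on those of intestine, and 254 and 275 on those of skin. It was lowest on both intestinal arrays, by 0.70 ± 0.13 against spleen (adjusted p = 0.00194) and 0.52 ± 0.13 against skin (adjusted p = 0.0119). Ndufs5, another accessory subunit, read 521 and 458 in spleen against 285 and 337 in intestine and 488 and 511 in skin. Its intestinal arrays were below those of skin by 0.66 ± 0.14 (adjusted p = 0.00457), while skin and spleen overlapped. Ndufab1, the mitochondrial acyl carrier protein, and Ndufb2, an accessory subunit, were dim and detected on the splenic arrays only, so their intestinal levels are bounds, at least 1.08-fold and at least 1.07-fold lower than in spleen. Both calls were lost under the common median over kept probes.

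In skin 6 of the 29 tested complex I genes were lower than in spleen and none was higher, beside 11.4% and 13.1% of all genes. Ndufa6, an accessory subunit that binds the acyl carrier protein, read 179 and 165 on the spleen arrays, 173 and 159.6 on those of intestine, and 77.4 and 103 on those of skin. Here skin was the low tissue and intestine overlapped spleen. Its difference was -0.83 ± 0.15 in skin against spleen (adjusted p = 0.00638), -0.05 ± 0.15 in intestine against spleen, and 0.79 ± 0.15 in intestine against skin (adjusted p = 0.00253). It was the only complex I gene called higher in intestine than in skin. Ndufb4, an accessory subunit, was at least 1.37-fold lower in skin, where neither array detected it, than in spleen. Ndufs4, an accessory subunit whose loss causes complex I deficiency, read 808 and 804 in spleen against 508 and 574 in intestine and 503 and 608 in skin. Both tissues were below spleen, by 0.57 ± 0.14 in intestine (adjusted p = 0.00938) and 0.53 ± 0.14 in skin (adjusted p = 0.0278).

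For Ndufs4 and Ndufa3, a small accessory subunit, probes listed under older names of the same genes went the other way. The brighter Ndufa3 probe differed by -0.54 ± 0.16 between intestine and spleen (adjusted p = 0.0166), but the probe named 1700022J01Rik differed by 0.96 (adjusted p = 0.000857 over all probes). The probe named 6720411N02Rik, of Ndufs4, differed by 0.62 (adjusted p = 0.0044). Averaging a gene's probes turned the Ndufa3 difference to 0.21 and ended the call for Ndufs4.

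The complex I genes can be split, with their values already seen, into the core subunits that carry the flavin and iron-sulfur centres or face the quinone, and the accessory subunits around them. Of the 6 tested nuclear core genes, Ndufs7 alone was lower in intestine than in spleen, by 0.49 ± 0.17 (adjusted p = 0.0339), and the median was -0.23. Of the 23 tested accessory genes, Ndufa4 included, 16 were lower, beside 28.3% of all genes, and their median was -0.50. Ndufab1, Ndufb2 and Ndufb4, detected on both arrays in spleen alone, are among the 16. The difference between the core and the accessory set was not tested. Ndufs1, the largest core subunit, and Ndufc2 were detected on no array and have no level here.

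**Figure D3:**
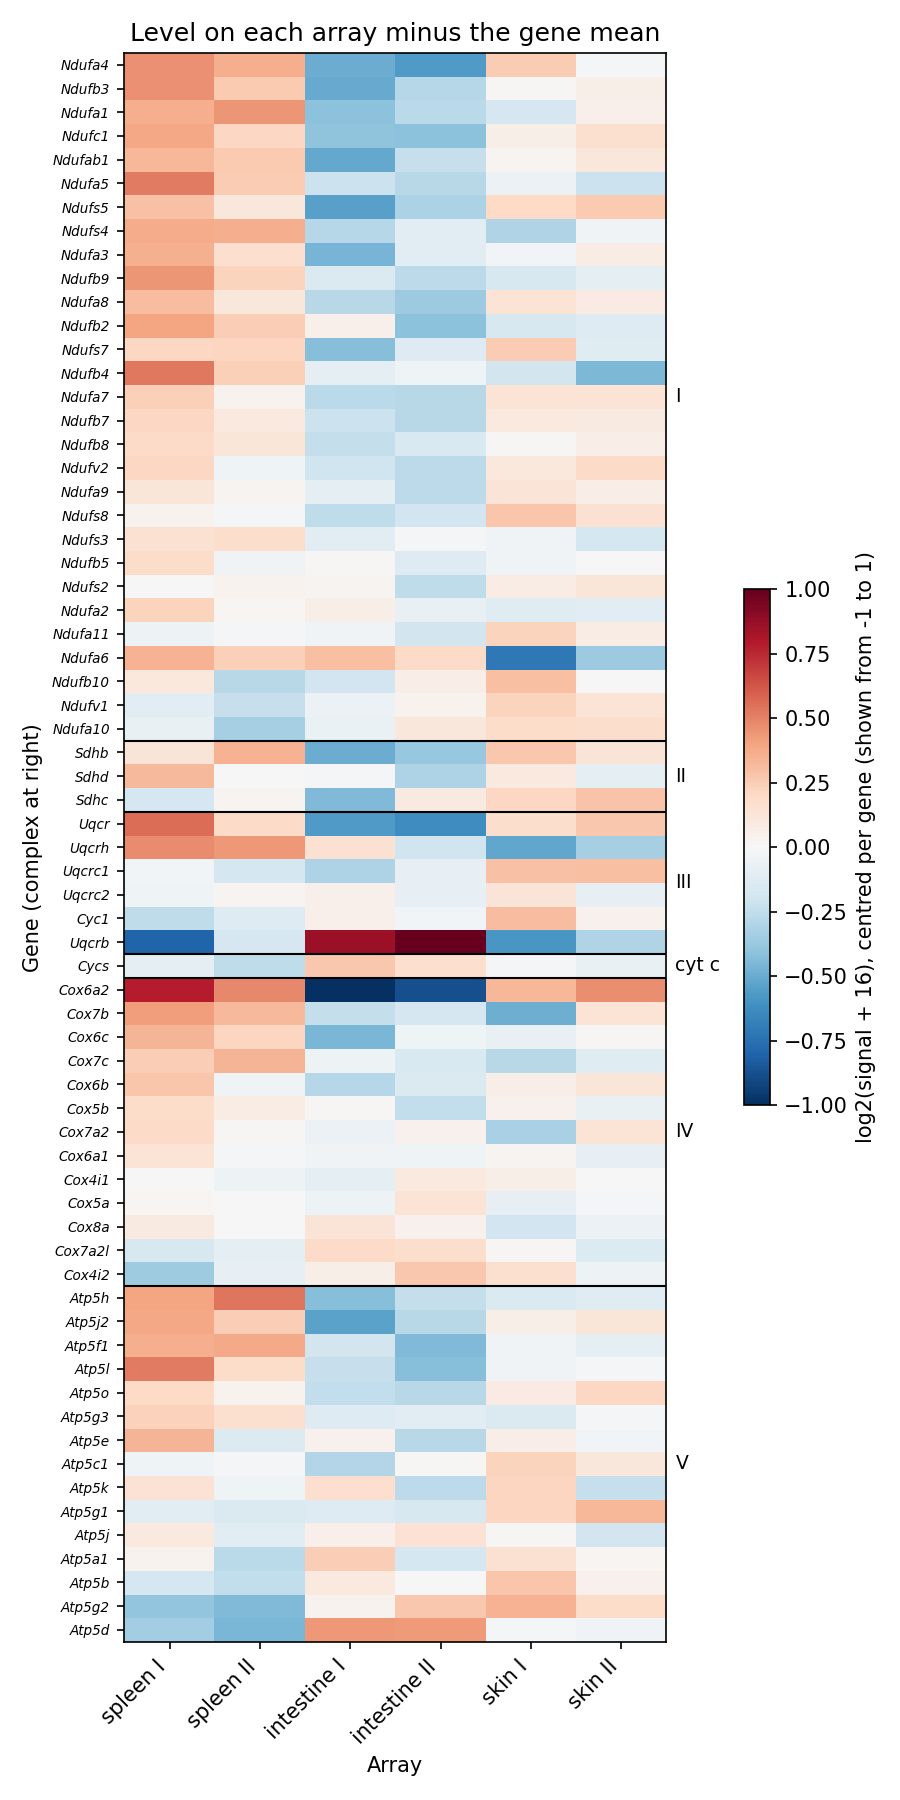
Level of each tested subunit gene on each of the 6 arrays, as log2(signal + 16) minus the gene's mean, in rows ordered by complex and by the intestine minus spleen difference. The 2 spleen columns are mostly red and the 2 intestine columns mostly blue in the upper rows of complex I. Ndufa4, placed there by its symbol, Ndufb3 and Ndufa1 lead. The brighter Uqcrb probe runs the other way and Ndufa6 is blue in skin only.

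Complex II, the succinate dehydrogenase, also serves the citric acid cycle. Sdhb, its iron-sulfur subunit, read 425 and 498 on the spleen arrays, 271 and 294 on those of intestine, and 470.3 and 425 on those of skin. Intestine was the low tissue and skin overlapped spleen, with a difference of -0.67 ± 0.14 in intestine against spleen (adjusted p = 0.00324), or 1.6-fold, and -0.63 ± 0.14 against skin (adjusted p = 0.00548). The membrane anchor Sdhc read 277 and 322 in spleen against 228 and 337 in intestine and 366 and 387 in skin. Intestine and spleen overlapped, and no difference passed (-0.10 ± 0.18 against spleen). The other anchor, Sdhd, read 74.6 and 56.1 on the spleen arrays, 55.5 and 42.3 on those of intestine, and 61.4 and 51.6 on those of skin, with a difference of -0.32 ± 0.17 in intestine that did not pass (adjusted p = 0.129). The 2 Sdha probes under the rule, for the flavoprotein, were detected on no array. A dim probe of Sdha under an older name read 7.29 and 5.30 in spleen and was detected in no other tissue.

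Complex III, the cytochrome bc1 complex, had 2 of its 6 tested genes lower and 1 higher in intestine than in spleen. These counts are near the shares of all genes, 28.3% lower and 21% higher. Uqcr, a small subunit at the edge of the complex, read 397 and 305 in spleen against 173 and 166 in intestine and 301 and 322 in skin. The intestinal arrays were well apart from the 4 others. It was 1.96-fold lower in intestine than in spleen (-0.97 ± 0.15, adjusted p = 0.00058) and 1.76-fold lower than in skin (-0.82 ± 0.15, adjusted p = 0.00199). Uqcrh, the hinge protein that helps cytochrome c1 meet cytochrome c, read 3448 and 3357 on the spleen arrays, 2764 and 2161 on those of intestine, and 1732 and 1971 on those of skin. Spleen was highest and skin lowest, with -0.87 ± 0.15 in skin (adjusted p = 0.00557) and -0.47 ± 0.15 in intestine (adjusted p = 0.0284); each of the 3 other scalings ended the intestinal call, with differences of -0.39, -0.36 and -0.0006.

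Uqcrb, a subunit next to cytochrome b, depended on the probe. The brighter probe, designed on a cDNA clone, read 183 and 285 in spleen against 505 and 534 in intestine and 175 and 223 in skin in deposited signal. Intestine was above both other tissues, by 1.41 ± 0.20 against spleen (adjusted p = 0.000343) and 1.37 ± 0.20 against skin (adjusted p = 0.000511). The other probe read 243 and 226 on the spleen arrays, 159.8 and 148 on those of intestine, and 139 and 123 on those of skin. On that probe spleen was the highest tissue, and the difference between intestine and spleen was -0.15 ± 0.14 and did not pass. The rise over spleen is therefore that of 1 of the gene's 2 probes. In intestine against skin the other probe differed by 0.37 ± 0.14 without passing (limma, adjusted p = 0.0596 over all probes). It was lower in skin than in spleen by 0.52 ± 0.14 (adjusted p = 0.026 over all probes). Uqcrc1, a core protein, read 563 and 506 in spleen against 459 and 539 in intestine and 705 and 710.0 in skin, and was lower in intestine than in skin by 0.49 ± 0.14 (adjusted p = 0.018), with intestine and spleen overlapping. Uqcrc2 and Cyc1 passed in no comparison, and both Uqcrfs1 probes, for the Rieske iron-sulfur protein, were detected on no array.

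Cytochrome c, encoded by Cycs, carries electrons from complex III to complex IV and is also known for its release in apoptosis. It read 383 and 340.3 on the spleen arrays, 498 and 461 on those of intestine, and 405 and 388 on those of skin. Intestine was the highest on both arrays, at 0.39 ± 0.13 against spleen (adjusted p = 0.034). The call was lost under 2 other scalings, with differences of 0.11 and 0.14, and its deposited signals, 431 and 382 in spleen against 481 and 416 in intestine and 389.6 and 380.1 in skin, overlapped between intestine and spleen.

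Complex IV, the cytochrome c oxidase, held the rule gene with the largest fall. Cox6a2, known as the heart and skeletal muscle form of subunit 6a, read 160.2 and 127 on the spleen arrays, 29.2 and 39.7 on those of intestine, and 113 and 125 on those of skin. Both intestinal arrays were far below the 4 others, and skin lay just below spleen. The difference was -1.66 ± 0.16 against spleen (adjusted p = 2.94e-05), or 3.16-fold, and -1.43 ± 0.16 against skin (adjusted p = 9.61e-05), the lowest of all rule genes in both comparisons. Its partner Cox6a1, the form found in most tissues, read 1319 and 1194 in spleen against 1175 and 1168 in intestine and 1223 and 1137 in skin. Those 6 values lie close together and Cox6a1 passed in no comparison (-0.10 ± 0.13 in intestine against spleen).

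In both comparisons with intestine the other 12 tested complex IV genes differed by less. Cox6c, a small nuclear subunit, read 1799 and 1655 on the spleen arrays, 1031 and 1382 on those of intestine, and 1348 and 1433 on those of skin, and was lower in intestine than in spleen by 0.53 ± 0.16 (adjusted p = 0.0215). Cox7c, another small subunit, read 2369 and 2526 in spleen against 1926 and 1794 in intestine and 1645 and 1833 in skin. It was lower than in spleen in both tissues, by 0.39 ± 0.13 in intestine (adjusted p = 0.0342) and 0.49 ± 0.13 in skin (adjusted p = 0.0283), but under the common median over kept probes the intestinal value was 0.02 and both calls were lost. Cox7b was detected on both splenic arrays and on neither intestinal one, at least 1.36-fold lower in intestine. The calls for Cox6c and Cox7b were also lost under that scaling.

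The remaining isoforms of complex IV gave no call. Cox4i1, the common form of subunit 4, read 3132 and 3033 on the spleen arrays, 2934 and 3369 on those of intestine, and 3269 and 3156 on those of skin, within the same range in all 3 tissues. Cox4i2, its low-oxygen form, was dim, detected on 4 of 6 arrays, and read 1.82 and 5.55 in spleen against 7.83 and 11.6 in intestine and 9.57 and 6.07 in skin, with intestine above spleen by 0.39 ± 0.16 without passing (adjusted p = 0.0625). Cox7a2, Cox7a2l, Cox6b and Cox8a differed between intestine and spleen by -0.11, 0.31, -0.34 and 0.04 and did not pass. A second Cox6b probe, almost as bright, was lower by 0.52 (adjusted p = 0.011 over all probes). The muscle forms Cox7a1 and Cox8b and the testis form Cox8c were detected on 1, 0 and 0 of 6 arrays.

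**Figure D4:**
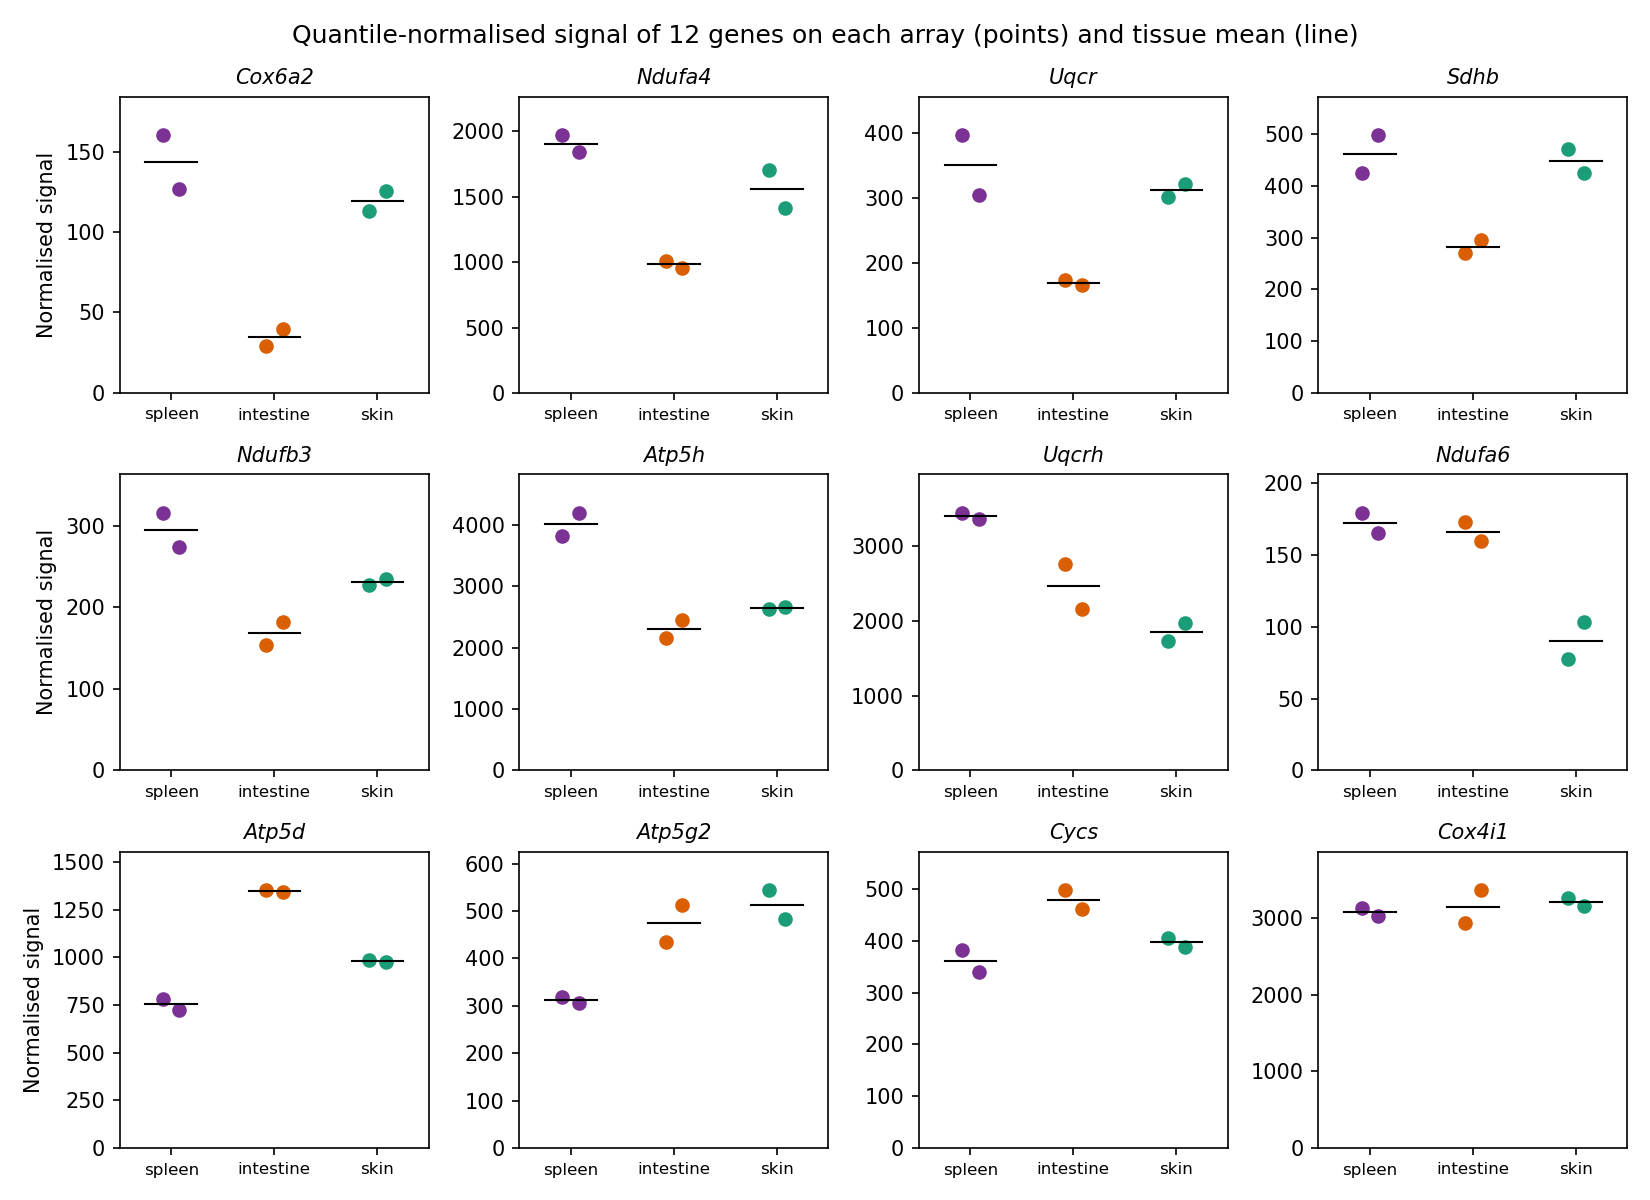
Quantile-normalised signal of 12 genes on each array (2 points per tissue), with the tissue mean as a line and every axis from 0. Cox6a2, Ndufa4, Uqcr and Sdhb are lowest on both intestinal arrays, Ndufa6 is lowest on both skin arrays, Atp5d and Cycs are highest in intestine, Atp5g2 is lowest in spleen, and Cox4i1 stays level.

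Complex V, the ATP synthase, is described by structural group, a split made with the values known, and differences between the groups were not tested. Of its 4 tested peripheral stalk genes 3 were lower in intestine than in spleen, beside 28.3% of all genes. Atp5h, stalk subunit d, read 3822 and 4195 on the spleen arrays, 2156 and 2452 on those of intestine, and 2621 and 2659 on those of skin. Spleen was above both tissues, by 0.80 ± 0.14 over intestine (adjusted p = 0.000993) and 0.60 ± 0.14 over skin (adjusted p = 0.0147), though both calls were lost under the common median over kept probes. Atp5f1, stalk subunit b, read 475 and 479 in spleen against 319 and 265 in intestine and 357 and 342 in skin, lower by 0.68 ± 0.14 in intestine (adjusted p = 0.0027) and 0.43 ± 0.14 in skin (adjusted p = 0.0472). Its other 2 kept probes differed by 1.10 and -0.50 between intestine and spleen, and averaging the probes ended both calls. Atp5o, the oligomycin sensitivity protein that joins stalk and head, read 1418 and 1267 on the spleen arrays, 1038 and 1012 on those of intestine, and 1308 and 1425 on those of skin, and was lower in intestine than in spleen by 0.38 ± 0.13 (adjusted p = 0.0383) and than in skin by 0.41 ± 0.13 (adjusted p = 0.0351); both calls were lost under the same scaling.

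Of the 3 small membrane subunits tested, 2 were lower in intestine than in spleen as well, beside 28.3% of all genes. Atp5j2, subunit f, read 3033 and 2749.8 in spleen against 1595 and 1915 in intestine and 2421 and 2522 in skin. Intestine was the lowest tissue, by 0.72 ± 0.14 against spleen (adjusted p = 0.00242) and 0.50 ± 0.14 against skin (adjusted p = 0.0199). Atp5l, subunit g, was also lower than in spleen, by 0.68 ± 0.15 (adjusted p = 0.00486). These 3 calls were lost under the common median over kept probes. For Atp5l a dim probe under an older name, 4933437C06Rik, differed by 0.66 without passing, and averaging the gene's probes left -0.14 and ended the call, as did leaving out splenic array I.

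The catalytic head and the rotor ring held the complex V genes that were higher. Atp5d, the delta subunit of the central stalk, read 783 and 724 on the spleen arrays, 1352 and 1345 on those of intestine, and 985 and 974 on those of skin. The tissues did not overlap and stood in the order intestine, skin, spleen, with 0.83 ± 0.13 for intestine against spleen (adjusted p = 0.000548), 0.45 ± 0.13 against skin (adjusted p = 0.018) and 0.37 ± 0.13 for skin against spleen, which did not pass (adjusted p = 0.058). The 4 other head and stalk genes tested, Atp5a1, Atp5b, Atp5c1 and Atp5e, passed in no comparison; Atp5b, the catalytic beta subunit, read 3596 and 3435 in spleen against 4368 and 4081 in intestine and 4924 and 4195 in skin.

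Atp5g1, Atp5g2 and Atp5g3 encode the same mature c subunit of the ring. Atp5g2 read 318 and 307 on the spleen arrays, 434 and 514 on those of intestine, and 544 and 483 on those of skin. Spleen was the lowest tissue, below intestine by 0.57 ± 0.14 (adjusted p = 0.008) and below skin by 0.69 ± 0.14 (adjusted p = 0.0102). Atp5g1 read 466 and 455 in spleen against 459.7 and 449 in intestine and 588 and 638 in skin, highest in skin, by 0.40 ± 0.13 over spleen (adjusted p = 0.0483) and 0.42 ± 0.13 over intestine (adjusted p = 0.027). Atp5g3 read 4081 and 3881 on the spleen arrays, 3170.2 and 3232 on those of intestine, and 3132 and 3435 on those of skin, highest in spleen, and passed in no comparison (-0.31 ± 0.13 in intestine, adjusted p = 0.0709). The calls of Atp5g2 in intestine and of Atp5g1 in skin, both against spleen, were lost under 2 scalings, and that of Atp5g1 between intestine and skin under the common median over kept probes.

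The 2 rule genes that encode no subunit were both lower in intestine. Ndufaf1, an assembly factor of complex I, read 153 and 167 in spleen against 48.6 and 71.6 in intestine and 152 and 149 in skin. Intestine stood apart from the 4 other arrays, by 1.23 ± 0.16 against spleen (adjusted p = 0.000209), or 2.34-fold, and 1.14 ± 0.16 against skin (adjusted p = 0.000392). Atp5s, now named Dmac2l, was not detected in intestine and was at least 1.69-fold lower there than in spleen and at least 1.45-fold lower than in skin.

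Of the 35 calls between intestine and spleen, 11 held under every alternative that gave a value, the leave-one-out fits included. These were Cox6a2, Uqcr, Ndufa4, Ndufb3, Ndufa1, Ndufc1, Sdhb, Ndufaf1 and Atp5s, lower, and Atp5d and the brighter Uqcrb probe, higher. Between intestine and skin 8 of 20 held, which were Cox6a2, Ndufaf1, Uqcr, Ndufs5, Ndufa4 and Sdhb, lower, and Ndufa6 and the brighter Uqcrb probe, higher. None of the 12 calls between skin and spleen did. Without splenic array I or II the rule genes' median in skin against spleen was -0.01 and -0.16, against 0.00 over all genes. Without skin array I or II it was -0.10 and -0.07, against 0.02 and -0.004. Between intestine and spleen the medians without splenic array I or II were -0.21 and -0.36, against -0.04 over all genes. Between intestine and skin those without skin array I or II were -0.16 and -0.20, against -0.06 and -0.09. Leaving out these arrays also lowered the share of all genes called in the same comparisons, so lost calls are not particular to the rule genes.

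Several subunits carry older names on this array and fall outside the rule. Of these 8 were tested, and Atp5md was higher in intestine than in spleen, by 0.60 ± 0.15 (adjusted p = 0.00846), while Ndufa13 was lower, with a difference of -0.44 ± 0.16 (adjusted p = 0.0409). For the Sdha probe above, not detected in intestine or skin, no difference is given. In skin against spleen the other differences ran from -0.31 for Ndufa13 to 0.26 for Ndufv3 and did not pass. In intestine against skin Atp5md was higher by 0.75 and Ndufv3 was lower by 0.52. Among the subunits that the mitochondrial genome itself encodes, 8 of 9 were tested, and their probes are listed apart from the rule. In both intestine and skin 1 was higher and 2 were lower than in spleen. Under the common median over kept probes 5 were higher and 0 lower in intestine, and 5 and 1 in skin; under each of the 2 other scalings these were 2 and 1, and 2 and 2. Of all genes 21% were higher and 28.3% lower in intestine, and 13.1% and 11.4% in skin. Under the common median over kept probes these were 34.4% and 24.4%, and 24.4% and 9.85%. Under the 2 others 13.6% and 14.7% were higher and 44% and 42.3% lower in intestine. In skin 9.97% and 12.6% were higher and 28.1% and 22.4% lower. The median of the mitochondrially encoded list in intestine turned from -0.14 to 0.13, 0.16 and 0.51 under the other scalings. mt-Nd5, a proton-pumping core subunit of complex I, read 51.3 and 25.8 on the spleen arrays, 171 and 118 on those of intestine, and 152 and 117 on those of skin in deposited signal. It was low in spleen on both arrays, by 1.96 ± 0.23 against intestine (adjusted p = 8.98e-05) and 1.73 ± 0.23 against skin (adjusted p = 0.00145). mt-Nd4l, another core subunit, was lower than in spleen by 0.54 ± 0.15 in intestine, where 1 array detected it, a call lost under the common median over kept probes, and was detected on neither skin array. For mt-Nd4 the sign in intestine against spleen turned with the scaling, from -0.41 ± 0.13 to 0.10, 0.13 and 0.49.

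The assembly factors that build these complexes moved in both directions. Of 37 tested, 16 were lower in intestine than in spleen and 2 were higher, with a median of -0.24, beside 28.3% of all genes lower. Under the common median over every probe and the deposited scaling alone, 27 and 26 were lower, beside 44% and 42.3% of all genes. Sdhaf1, which helps to insert the iron-sulfur centres of Sdhb, read 176 and 174 in spleen against 518 and 458 in intestine and 139 and 124 in skin in deposited signal. It was high on both intestinal arrays, by 1.71 ± 0.13 over spleen (adjusted p = 7.35e-06) and 1.82 ± 0.13 over skin, while Sdhb itself was low there. Ttc19, a complex III factor, rose by 1.10 ± 0.13 over spleen, and the complex IV factors Coa3 and Coa6 and the complex II factor Sdhaf4 fell by 1.04, 0.93 and 0.96. Each of these calls kept its direction and passed under the 3 other scalings. In skin against spleen 5 were lower and 1 was higher, but 16 and 14 were lower and 0 higher under those 2 scalings. Of all genes 11.4% were lower there, and 28.1% and 22.4% under those scalings. In intestine against skin 7 were lower and 4 higher, and 15 and 3 under each of the 2. All genes had 22.9% lower in that comparison, and 27.6% and 30.1% under those scalings. Under the common median over kept probes 15 were lower and 4 higher in intestine against spleen, beside 24.4% and 34.4% of all genes. Under that scaling skin against spleen had 5 lower and 2 higher, beside 9.85% and 24.4%. Intestine against skin had 10 lower and 4 higher, beside 22.1% and 17.2%.

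The mitochondrial ribosome, which translates the mitochondrially encoded subunits, had 25 of 70 tested protein genes lower in intestine than in spleen and 8 higher (median -0.25), and 28 lower and 2 higher than in skin, where all genes had 28.3% and 22.9% lower. Under the common median over every probe and the deposited scaling alone, 54 and 49 were lower and 4 higher against spleen. Against skin 39 and 41 were lower and 2 higher. All genes then had 44% and 42.3% lower against spleen, and 27.6% and 30.1% lower against skin. Mrpl22, Mrps33 and Mrps17 fell by 1.20, 1.01 and 0.97 against spleen and Mrps6 rose by 1.49. In skin against spleen 3 were lower and 8 higher, but 13 and 2, and 10 and 2, under the same scalings. In that comparison 11.4% of all genes were lower and 13.1% higher. Under those scalings 28.1% and 22.4% were lower. Citric acid cycle genes had 2 lower and 2 higher of 17 in intestine against spleen, but 9 and 0 under either of those scalings. These counts stand beside 28.3% of all genes lower, and 44% and 42.3% under those scalings. Suclg1 and Sucla2, both of succinyl-CoA synthase, fell by 0.76 and 0.62, and Pdhb, of pyruvate dehydrogenase, was higher by 0.60, a call lost under 2 scalings. Among 14 inner membrane carriers, channels and related genes, the phosphate carrier Slc25a3 rose by 0.80 ± 0.14 in intestine against spleen (adjusted p = 0.0013). The cristae protein Immt fell by 0.80 ± 0.13 (adjusted p = 0.000715). In all 2 were higher and 2 lower, and 1 higher and 5 or 4 lower under those scalings. The shares of all genes lower are those given for the citric acid cycle, with 21% higher, and 13.6% and 14.7% under those scalings. Under the common median over kept probes intestine had 25 ribosomal genes lower and 8 higher against spleen, and 31 and 3 against skin. The citric acid cycle then had 2 and 2 against spleen, and the carriers 2 and 4. All genes had 24.4% lower and 34.4% higher against spleen, and 22.1% and 17.2% against skin. In skin against spleen 3 ribosomal genes were lower and 9 higher, beside 9.85% and 24.4% of all genes.

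Of 14 tested regulators of mitochondrial genes 5 were higher in intestine than in spleen and 5 lower. Under the common median over every probe and the deposited scaling alone these were 3 and 6. All genes had 21% higher and 28.3% lower, or 13.6% and 14.7% higher and 44% and 42.3% lower under those scalings. Under the common median over kept probes 5 were again higher and 5 lower, beside 34.4% and 24.4% of all genes. Nrf1, which encodes the activator named above, was lower in intestine by 0.54 ± 0.17 against spleen (adjusted p = 0.022) and 0.91 ± 0.17 against skin (adjusted p = 0.00189). Gabpb1, the beta subunit of GABP, read 77.9 and 71.9 on the spleen arrays, 395 and 375 on those of intestine, and 41.2 and 54.9 on those of skin in deposited signal. Both intestinal arrays were far above the others, by 2.48 ± 0.14 over spleen (adjusted p = 1.13e-06) and 2.72 ± 0.14 over skin. Polg2, the accessory subunit of the mitochondrial DNA polymerase, rose by 1.95 ± 0.13 over spleen, and Myc, a growth regulator, by 1.94 ± 0.25. The catalytic polymerase subunit Polg read 42.4 and 49.0 in spleen and was detected on neither intestinal array. The mitochondrial RNA polymerase Polrmt fell by 1.19 ± 0.18 and the oestrogen-related receptor Esrra by 0.74 ± 0.16. The mitochondrial transcription factor Tfam was higher than in spleen by 0.54 ± 0.13 in intestine (adjusted p = 0.00582) and lower by 0.61 ± 0.13 in skin. In skin against spleen Pprc1 was higher by 0.44 ± 0.14. Of these calls those of Tfam in intestine and of Pprc1 in skin were lost under 2 scalings.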

How the data were processed

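Biotin-labelled RNA of sorted cells was measured on Illumina bead arrays. The deposited intensities are background-subtracted signals per probe, exported with BeadStudio 1.5.1.3 per the submitters' processing notes, and the authors scaled each array to the same mean, as the values show; the series' value table holds the same intensities unscaled. The deposited detection p-values say how far a probe lies above the negative controls. Array names place replicate I of each tissue on slide 1 and replicate II on slide 2, so the replicate numbers mark a shared slide. Deviations of same-numbered arrays from their tissue means correlated weakly over genes (r = 0.16, 0.21 and 0.11). With 2 arrays per tissue these values cannot settle whether the samples were paired.

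Signals were taken as log2(signal + 16) and quantile-normalised. Probes were kept (18583) when 1 tissue or more had a detection p under 0.01 on its 2 arrays, with the brightest per gene, which left 13455 genes. All 6 arrays were fitted in limma 3.58.1 (R 4.3.3; lmFit and eBayes, 3 residual degrees of freedom) with no block, and Benjamini-Hochberg adjusted p under 0.05 was called. The script was tested on simulated data. The number of arrays limits the precision. A bound for a gene detected on no array of a tissue sets the brighter tissue's mean against the lowest detected signal of each dim array.

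The genes named are, per complex and comparison, up to 3 called genes of the largest difference in each direction, all of complex II and cytochrome c, the tissue isoforms, and up to 3 called genes per pathway list; Ndufs7, Ndufab1, Ndufb2, Ndufb8, Ndufa3, Uqcrc2, Cyc1, Atp5l, Atp5a1, Atp5b, Atp5c1, Atp5e, Nrf1, the marker genes and subunits under older names were added with their values seen. The members and lists were chosen with earlier results of these data known. Alternatives covered scaling, offset, filter, probe choice, arrays in the fit, the slide as a block, the unscaled table and leaving out each array. No probe sequences were used here. Results on some items withheld for evaluation are not reported here.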

Additional observations from a re-analysis of the deposited data

How the results depend on the processing

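Only 2 arrays per tissue limit these results, and leaving out an array leaves a lone one that is assumed to vary like the other tissues. The count of rule genes called stayed within 1.5 times of 35 between intestine and spleen under every alternative other than leaving out a splenic array; without 1 array it ran from 16 to 34. Between skin and spleen the count of 12 became 27 under a common median over every probe, 19 with an offset of 50 and 5 with no filter on dim probes, and ran from 0 to 17 without 1 array. Between intestine and skin the count of 20 became 12 with no filter and 13 with only the 2 tissues compared, and ran from 9 to 21 without 1 array. With no filter 31484 genes were tested, and 17.3% were called between intestine and spleen, against 49.3% with the filter. In that comparison a similar count can hide changed genes and directions. Under the common median over kept probes 18 rule genes were lower and 10 higher, beside 24.4% and 34.4% of all genes. Of the 35 calls 21 were kept there, 13 were lost and 1 changed sign, while 7 were gained. Under the common median over every probe and the deposited scaling alone 32 and 31 were kept. With the replicate number as a block, 35, 14 and 22 rule genes were called between intestine and spleen, skin and spleen, and intestine and skin; the block ended no call. Under the common median over every probe, the deposited scaling alone and the common median over kept probes, 5, 6 and 8 of the 69 genes changed sign without passing in intestine against spleen, 14, 12 and 10 in skin against spleen, and 2, 2 and 9 in intestine against skin. In intestine against spleen Atp5j went from 0.10 to -0.36 (adjusted p = 0.0469) under the common median over every probe. Cox7c went to 0.0228 under the common median over kept probes, a scaling chosen after seeing the data. Ndufa3 went to 0.2062 when a gene's probes were averaged. The median of the rule genes in skin against spleen went from -0.09 to 0.0034 under the common median over kept probes. The cause was not tested. Kept probes under the rule's symbols differed in sign in 3, 6 and 8 of 16 genes in intestine against spleen, skin against spleen and intestine against skin, and probes under older names opposed Atp5l, Ndufa3 and Ndufs4 as well in intestine against spleen; dim genes have only bounds.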
